A study of Mus musculus with 31 samples.

Results

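The long noncoding RNAs of sorted regulatory T cells (Tregs) were taken from the count table by annotation and abundance. A gene was included if the table gave its biotype as lincRNA, antisense or processed_transcript and if it averaged at least 5 CPM over 24 libraries of spleen, lymph node, lung and blood. CPM is the usual measure that scales the read count of a gene to the total count of its library. Gas5 and genes whose name in the table starts with Snhg were left out. This gave 139 of 24594 genes; 3049 genes had one of the 3 biotypes, and 6 that reached 5 CPM were left out by name. The genes were thus chosen by their mean level over the 24 libraries, which is given as a description only.

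Tregs are CD4 T cells that restrain other immune cells, and the series measured their RNA in mice with and without mammary tumors, all of FVB/N background. Cells were sorted as live, CD45+, CD3+, CD4+, CD8- and CD25+, with no gate on FOXP3. KEP mice (K14cre;Cdh1F/F;Trp53F/F) express Cre from the keratin 14 promoter, which removes E-cadherin and p53 from epithelium, and were used when their spontaneous mammary tumor measured 225 mm2. WT mice (wt;Cdh1F/F;Trp53F/F) carry the same floxed alleles but no Cre. KEP groups were tumor, spleen, tumor-draining lymph node, lung and blood, with 3 libraries each. WT groups were spleen, lymph node, lung and blood, with 3 libraries each, and healthy mammary gland, with 4. A KEP library came from 1 mouse and a WT library from a pool of 3 mice, so p-values measure the spread between these libraries. The sources used here do not say whether libraries of several tissues that share a title date came from the same mouse or pool; if so, p-values over the 4 tissues count 1 source more than once and are too small. Ages were not given in the sources used here. Since these are bulk samples, fewer cells of a type and less RNA per cell cannot be told apart.

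Long noncoding RNAs are transcripts without a recognised coding frame. Some act in the nucleus, as scaffolds of nuclear bodies or as silencers of a chromosome; some act on the gene beside them; others are the remains of transcripts from which a microRNA or a small nucleolar RNA is cut. In T cells they include the precursor of miR-142, a microRNA of all blood cells, the precursor of the miR-17 to miR-92 cluster, which promotes lymphocyte growth, Flicr, which lies beside Foxp3 and tunes its expression in mouse Tregs, and Morrbid, which in mouse myeloid cells and CD8 T cells restrains the neighbouring death gene Bcl2l11.

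Total counts ran from 8154765 to 15258958 per library. The summed level of 10 T cell markers was 4967 to 7364 CPM in the 24 libraries of spleen, lymph node, lung and blood, 1966 to 6374 CPM in tumor and 171 to 1742 CPM in mammary gland, and no T cell or Treg marker was at 0 in any library. Of 5 Treg markers all 5 were higher in KEP than in WT mice over the 4 tissues (median log2 fold change 0.56), while 10 T cell markers had a median of 0.06. Of 5 neutrophil markers 3 passed the filter on low counts and all 3 were higher in KEP; their summed level stayed at 0 to 57.5 CPM in the 24 libraries, with all 5 at 0 in some libraries of both genotypes and the highest sum in KEP spleen replicate 3. Of 6 epithelium markers 2 passed the filter and both were higher in KEP, over the tissues (median 1.37) and in lung (1.43). In lung 3 of 8 macrophage markers were lower and 1 higher in KEP (-0.81), with sums of 34.8 to 74.6 CPM in KEP lungs and 91.6 to 157 CPM in WT lungs, and 1 of 2 dendritic cell and 1 of 4 CD8 T and NK cell markers were lower. The dates in the library titles are shared by tissues of one genotype but by no KEP and WT library, so date and genotype cannot be told apart. The WT libraries of the first title date (replicate 1 of spleen, lymph node, lung and blood) held the highest WT value for 61.2% of the 139 genes in spleen, 71.2% in lymph node, 64.7% in lung and 46.0% in blood, and results that rest on them are given with and without them. Whether marker levels or these libraries account for any difference below was not tested.

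Several of the 139 genes are known by another name than the one in the table. The names in GENCODE M21 or RefSeq are used below for Morrbid (Gm14005 in the table), Flicr (Ppp1r3fos), Mirt1 (5830416P10Rik), Mir142hg (A430104N18Rik), Snhg20 (2810008D09Rik), Snhg15 (Gm11974), Snhg17 (9430008C03Rik), Epb41l4aos (2410004N09Rik), Gm19585 (RP23-307A6.1), A630072M18Rik (RP24-300D7.1) and F730311O21Rik (RP23-217K18.4). Snhg15, Snhg17 and Snhg20 are small nucleolar RNA host genes that stayed in the set because the table names them otherwise.

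The sequences that matter most are those cut from the microRNA precursors, since a host transcript is read here as a measure of its locus and the mature microRNAs were not measured. RefSeq places these mature microRNAs inside Mir142hg on chromosome 11 and Mir17hg on chromosome 14, and the miR-23a, miR-27a and miR-24 set just before Gm26532 on chromosome 8, all on GRCm38.p6. They are shown 5′ to 3′ with the seed, bases 2 to 8, in capitals.
miR-142a-5p (Mir142hg): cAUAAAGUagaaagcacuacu
miR-142a-3p (Mir142hg): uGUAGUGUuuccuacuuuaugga
miR-17-5p (Mir17hg): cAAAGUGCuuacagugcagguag
miR-20a-5p (Mir17hg): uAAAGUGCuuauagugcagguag
miR-18a-5p (Mir17hg): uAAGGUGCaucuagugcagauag
miR-19a-3p (Mir17hg): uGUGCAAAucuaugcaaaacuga
miR-19b-3p (Mir17hg): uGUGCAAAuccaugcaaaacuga
miR-92a-3p (Mir17hg): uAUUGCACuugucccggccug
miR-23a-3p (beside Gm26532): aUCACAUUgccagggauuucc
miR-27a-3p (beside Gm26532): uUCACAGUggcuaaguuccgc
miR-24-3p (beside Gm26532): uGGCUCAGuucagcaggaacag
miR-17-5p and miR-20a-5p share the seed AAAGUGC, miR-19a-3p and miR-19b-3p share GUGCAAA, and the other microRNAs printed here each have a seed of their own. The hairpins of miR-23a and miR-27a lie 328 and 162 bases from Gm26532, and that of miR-24 reaches it by 2 bases. None lies whole inside it. RefSeq hairpins lay inside 5 of the 139 genes on the same strand: Mir142hg, Mir17hg, Snhg20, Ftx and 2900076A07Rik. The list of microRNA hosts used below holds Mir142hg, Mir17hg and Pvt1, and no hairpin was found inside Pvt1.

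Of the 139 genes, 85 had a promoter in the RefSeq table. Those of the 3 genes listed as linked to T cells and immune cells are shown, 250 bases before to 50 after the annotated start. Matches to the AP-1 motif TGANTCA, searched on both strands, are in capitals. AP-1 is a factor family activated by T cell receptor signals.
Morrbid, chr2:128429302-128429601, minus strand: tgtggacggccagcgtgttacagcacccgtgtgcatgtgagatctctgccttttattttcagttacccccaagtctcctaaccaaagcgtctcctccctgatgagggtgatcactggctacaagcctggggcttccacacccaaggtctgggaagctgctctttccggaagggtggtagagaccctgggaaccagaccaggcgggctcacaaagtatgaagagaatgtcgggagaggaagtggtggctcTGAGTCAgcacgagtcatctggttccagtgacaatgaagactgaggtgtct
Mirt1, chr19:53464747-53465046, minus strand: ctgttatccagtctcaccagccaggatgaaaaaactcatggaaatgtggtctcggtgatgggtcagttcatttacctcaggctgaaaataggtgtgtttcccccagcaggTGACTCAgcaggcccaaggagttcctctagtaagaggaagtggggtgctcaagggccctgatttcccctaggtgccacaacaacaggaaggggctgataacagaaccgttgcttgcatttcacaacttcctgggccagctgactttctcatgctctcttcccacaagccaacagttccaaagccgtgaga
Flicr, chrX:7573350-7573649, plus strand: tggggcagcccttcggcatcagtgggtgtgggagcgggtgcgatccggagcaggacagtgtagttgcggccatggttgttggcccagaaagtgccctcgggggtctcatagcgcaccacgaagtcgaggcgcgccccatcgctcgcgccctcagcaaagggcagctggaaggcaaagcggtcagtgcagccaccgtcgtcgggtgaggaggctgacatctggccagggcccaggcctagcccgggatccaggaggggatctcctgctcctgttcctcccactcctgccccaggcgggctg
The Morrbid window held 1 match, spanning the annotated start, the Mirt1 window held 1, beginning at -140 from the start, and the Flicr window held none. The motif occurred in 7.813% of all 32817 promoters of the table and in 4 of 101 promoters of the 139 genes (3.96%). The STAT motif TTCNNNGAA was in none of the 3 windows, in 8.294% of all promoters and in 6.931% of the promoters of these genes. A match is a description of letters and shows no binding.

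By file biotype the 139 genes were 65 lincRNAs, 47 processed transcripts and 27 antisense RNAs. GENCODE M21 held 134 of them, and gave 8 as protein-coding, such as Fam169b and BC029722, and 1, Atp10d, as a polymorphic pseudogene. They were smaller than coding genes at the same threshold, with a median of 3407.5 bases in 4 merged exons against 4681 bases in 10 exons for 9493 coding genes. Of the 134 located genes 104 overlapped another annotated gene, 85 shared exon bases with one, and 102 overlapped or lay within 5000 bases of a protein-coding gene. The library kit marks strand, but whether counting used it is not given in the sources used here. For the overlapping genes, reads from both partners may therefore be mixed, and those named below as antisense or overlapping are uncertain in that sense.

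Most of these RNAs were scarce. The median was 13.62 CPM, 13 genes exceeded 100 CPM, and the 4 most abundant made up 60.9% of the summed level. All 139 were detected in each of the 31 libraries. Just above the threshold stood Gm15441 (5.10 CPM), Gm26799 (5.09) and 5830468F06Rik (5.09), and just below it C030034I22Rik (4.94), Gm12764 (4.86) and C130036L24Rik (4.84). Together they took 0.703% to 1.84% of the counts in the 24 libraries. In blood the share was 0.904% to 1.14% in KEP mice and 1.13% to 1.84% in WT mice, and without Yam1, described next, 0.664% to 0.855% in KEP mice and 0.740% to 0.843% in WT mice.

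Levels of different genes were compared per kilobase of merged exons, as CPM per kb over the 24 libraries. Yam1 stood first at 2033. It lies on chromosome 17 (39846958 to 39848788) over an annotated ribosomal RNA gene and is named Rn18s-rs5 in RefSeq, so its counts cannot be told apart from ribosomal RNA. Next came Malat1 (148), a nuclear RNA of splicing speckles, Mir142hg (112), 2410006H16Rik (88.5), A630023P12Rik (60.2), Atp10d (37.5), 2010016I18Rik (35.3), 1700097N02Rik (31, RP23-362B7.1 in the table), AU020206 (29.5) and Xist (28.7), the silencer of the inactive X chromosome. Neat1, the scaffold of paraspeckles, ranked 18th at 22.6 and Tug1 25th at 13.4. Of the RNAs introduced above for T cells, Mir142hg was thus high, at 112. The others were low, with Flicr at 3.43, Mir17hg at 3.07 and Morrbid at 1.92 CPM per kb. Mirt1 stood at 1.78 CPM per kb.

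**Figure D1:**
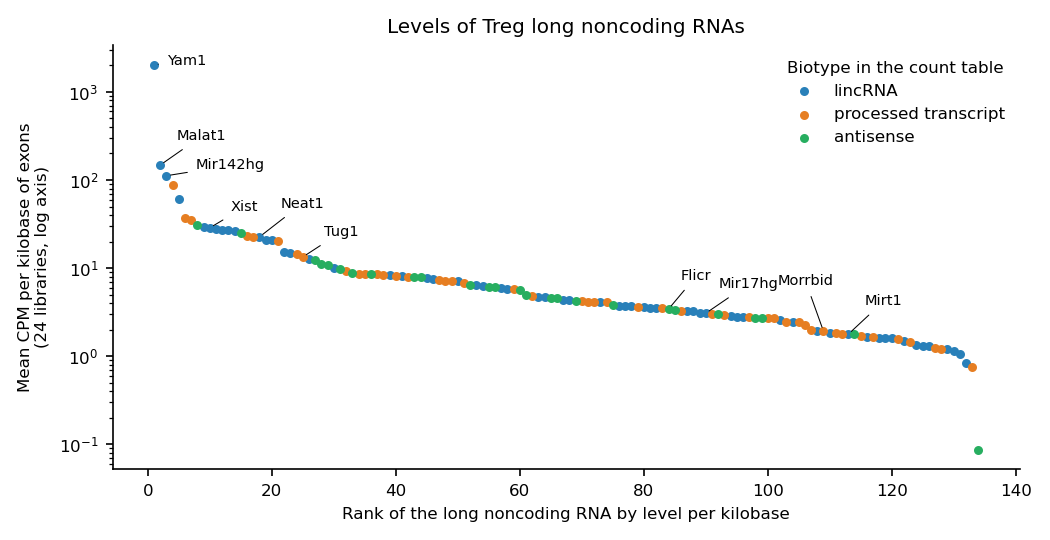
Level of each of the located long noncoding RNAs in CPM per kilobase of merged exons, mean over the 24 libraries of spleen, lymph node, lung and blood, on a log axis against rank, with named genes marked. Yam1 at 2033 and Malat1 at 148 stand at the top, and Morrbid at 1.92 and Mirt1 at 1.78 stand near the low end.

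Differences were tested in all genes that passed a filter on low counts with edgeR's quasi-likelihood test, and genes whose p, adjusted over all of them by Benjamini-Hochberg, was under 0.05 are referred to as called. All 139 passed the filter in the fit of the 24 libraries, the same libraries whose mean level chose them. The mean difference between KEP and WT over the 4 tissues was called for 68 of the 139, 19 higher and 49 lower in KEP, against 41.4% of all 12825 genes tested (21.1% higher and 20.3% lower). Their median log2 fold change was -0.14, against -0.00 for all genes tested. With the title date as a random term in limma-voom 36 were called, 10 higher and 26 lower. Without the WT libraries of the first title date 47 were called, 18 higher and 29 lower. In a fit of all 31 libraries 30 were called, 3 higher and 27 lower. The share of all genes called under these settings is not given here, so no loss particular to these genes is shown. The share of lower calls was 26 of 65 lincRNAs, 15 of 47 processed transcripts and 8 of 27 antisense RNAs, and of higher calls 10, 6 and 3. By role, 2 of the 3 RNAs listed as linked to T cells and immune cells were higher (Morrbid and Flicr) and 1 was lower (Mirt1). Of the 3 listed microRNA hosts 2 were lower. Both nuclear RNAs of speckles and paraspeckles (Malat1 and Neat1) were lower, and neither RNA of X inactivation (Xist and Ftx) was called. The Malat1 and Neat1 calls were lost with the title date as a random term (adjusted p = 0.0687 for Malat1 and 0.0861 for Neat1) and without the WT libraries of the first title date.

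Within single tissues the counts were smaller. In lung 8 were called higher and 24 lower in KEP, against 19.9% of all genes (9.61% higher and 10.3% lower). In blood 9 were higher and 24 lower, against 20.2% (9.88% and 10.3%). In spleen 2 were called higher and 1 lower, against 4.26% of all genes (3.3% and 0.959%), and in lymph node 3 and 1, against 1.12% (0.663% and 0.452%). A log2 fold change below 0 in all 4 tissues was found for 54 genes (38.8%, against 24.4% of all genes tested) and above 0 in all 4 for 16 (11.5%, against 23.7%). In both lung and blood 14 were called lower (10.1%, against 5.79% of all genes) and 4 higher (2.88%, against 5.81%). None was called in opposite directions in different tissues, and of all 12825 genes 1 was. These counts lean on single libraries. In spleen 1 gene was left without WT replicate 1 or 2 or without any 1 KEP library. In lymph node none was left without WT replicate 1, 1 without KEP replicate 1, and 2 without WT replicate 3 or KEP replicate 3. In lung 16 were left without KEP replicate 1, 17 without WT replicate 1 and 20 without WT replicate 3, and in blood 21 without KEP replicate 3. As single libraries were left out, the count over all genes moved too. It ran from 243 to 537 in spleen, 28 to 110 in lymph node, 1367 to 2576 in lung and 1566 to 2379 in blood.

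**Figure D2:**
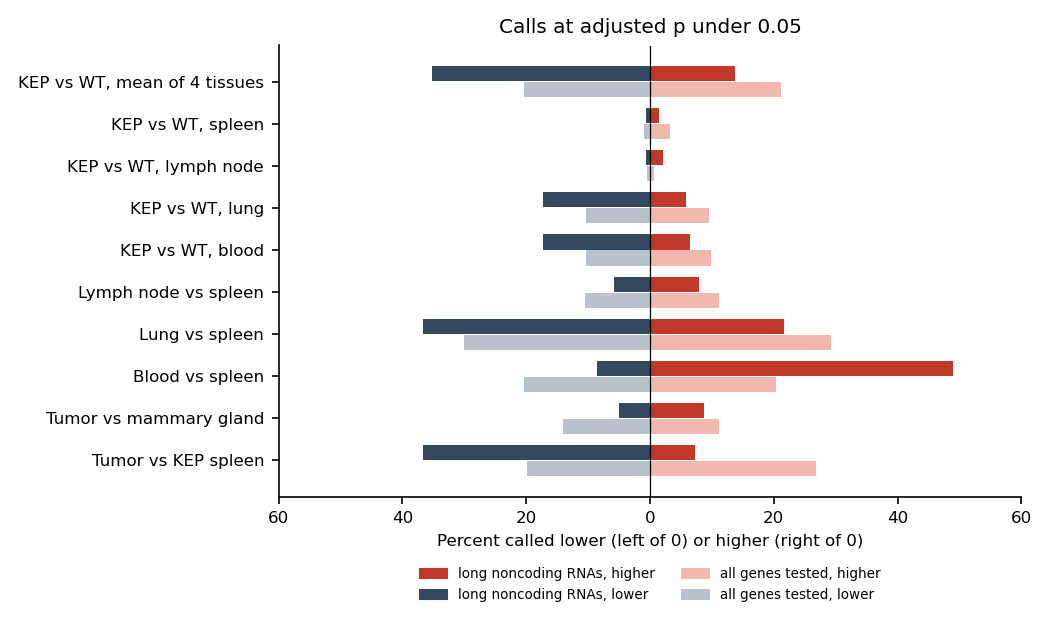
Share of the long noncoding RNAs called higher and lower (edgeR, adjusted p under 0.05) in each comparison, as a percentage to the right (higher) and left (lower) of 0, with the percentage of all genes tested in paler bars. Lower calls outnumber higher ones in the mean of KEP against WT (19 higher, 49 lower), and higher calls outnumber lower ones in blood against spleen (68 higher, 12 lower).

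The test of whether the KEP against WT difference itself differed among the 4 tissues called 0 of the 139 with edgeR, against 0.304% of all genes, and 14 had an unadjusted p under 0.05 (10.1%, against 11.8% of all genes). DESeq2 called 4, limma-voom called 0 without and 4 with the title date as a random term, and edgeR called 3 without the filter. It called 2 without WT spleen replicate 1 or without the WT libraries of the first title date, and 1 without KEP lung replicate 3. Over all genes its count ran from 4 to 86 as single libraries were left out. A call in lung or blood that was absent in spleen or lymph node is therefore not shown to differ between those tissues.

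Morrbid had the smallest p of the genes that were higher in KEP. It lies on chromosome 2 (128195993 to 128429349, minus strand). It stood at 8.11, 8.72 and 8.66 CPM in KEP spleens, against 3.04, 3.06 and 2.95 CPM in WT spleens. Lymph nodes had 9.26, 8.39 and 8.71 CPM in KEP mice, against 3.61, 4.26 and 4.04 CPM in WT mice. The groups do not overlap in either tissue, and all 6 KEP libraries lie above all 6 WT libraries. Lungs had 10.8, 9.51 and 7.85 CPM in KEP mice, against 4.31, 2.08 and 4.04 CPM in WT mice. Blood had 21.2, 15.6 and 14.7 CPM in KEP mice, against 8.83, 7.92 and 7.78 CPM in WT mice. These groups are also separate, and the blood levels exceed those of the other tissues in both genotypes. All WT values of spleen, lymph node and lung lay under the CPM threshold used to choose the genes. The place of Morrbid in the set therefore rests on its levels in KEP mice and in WT blood. The mean log2 fold change over the tissues was 1.28 (SE 0.10, edgeR adjusted p = 1.44e-09), with 1.49 in spleen (adjusted p = 7.05e-05), 1.15 in lymph node (0.00589), 1.42 in lung (8.98e-05) and 1.06 in blood (5e-04). It was the 1 gene of the set called higher in all 4. In lymph node it was not called without WT replicate 1 (1.07, adjusted p = 0.0667), nor without the WT libraries of the first title date (1.07, 0.0823). Bcl2l11 encodes the death protein BIM, and 15772 bases separate its span from that of Morrbid. Its log2 fold change was -0.02 over the tissues (edgeR adjusted p = 0.863). Bcl2l11 stood at 63.1 ± 7.70 CPM in KEP spleens and 67.4 ± 2.25 CPM in WT spleens (SD, n = 3 each).

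Flicr, which overlaps Foxp3 and Ppp1r3f on the X chromosome (7573600 to 7581015, plus strand), showed a small rise over the 4 tissues. It stood at 15, 11.8 and 16.3 CPM in KEP spleens, against 12, 10.7 and 9.64 CPM in WT spleens. Lungs had 7.78, 7.41 and 7.67 CPM in KEP mice, against 5.24, 5.03 and 6.01 CPM in WT mice. The lungs are separate and the spleens overlap. Lymph nodes had 14, 15.4 and 15.8 CPM in KEP mice, against 18.6, 13.6 and 13.9 CPM in WT mice, and blood had 19.4, 13.5 and 17.9 CPM in KEP mice, against 12.2, 14.6 and 11.3 CPM in WT mice. Both of these pairs overlap. The mean log2 fold change was 0.32 (SE 0.08, adjusted p = 0.00303), and it was not called in the fit of all 31 libraries (adjusted p = 0.314). No single tissue passed, the values being 0.41 in spleen, -0.03 in lymph node, 0.49 in lung and 0.41 in blood. Foxp3, the transcription factor that defines Tregs and a gene chosen after its values were seen, had a mean log2 fold change of 0.52 (SE 0.05, adjusted p = 7.02e-08), with 0.63 in spleen, 0.21 in lymph node (adjusted p = 0.387), 0.50 in lung and 0.76 in blood. Flicr and Foxp3 lie on the same strand and overlap, so reads of one may have been counted for the other.

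Mirt1, a transcript first named in infarcted mouse heart, had the smallest p of the genes that were lower in KEP. It lies on chromosome 19 (53441212 to 53464796, minus strand). Lungs had 5.06, 6.90 and 11.7 CPM in KEP mice, against 19.3, 17.0 and 16.2 CPM in WT mice, and blood had 17.6, 12.6 and 18.3 CPM in KEP mice, against 31.5, 28.9 and 37.0 CPM in WT mice. In both tissues each KEP library is below each WT library. Spleens had 10.6, 15.2 and 12.8 CPM in KEP mice, against 25.0, 20.7 and 18.8 CPM in WT mice. Lymph nodes had 4.70, 4.19 and 6.22 CPM in KEP mice, against 11.4, 4.97 and 8.67 CPM in WT mice. The spleens are separate as well and the lymph nodes overlap. The mean log2 fold change was -0.91 (SE 0.13, adjusted p = 7.03e-06), with -1.16 in lung (adjusted p = 0.00306), -1.01 in blood (0.00466), and -0.74 in both spleen (0.0861) and lymph node (0.208). In the edgeR fit of all 31 libraries Mirt1 was called neither in lung (adjusted p = 0.0869) nor in blood (0.122).

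**Figure D3:**
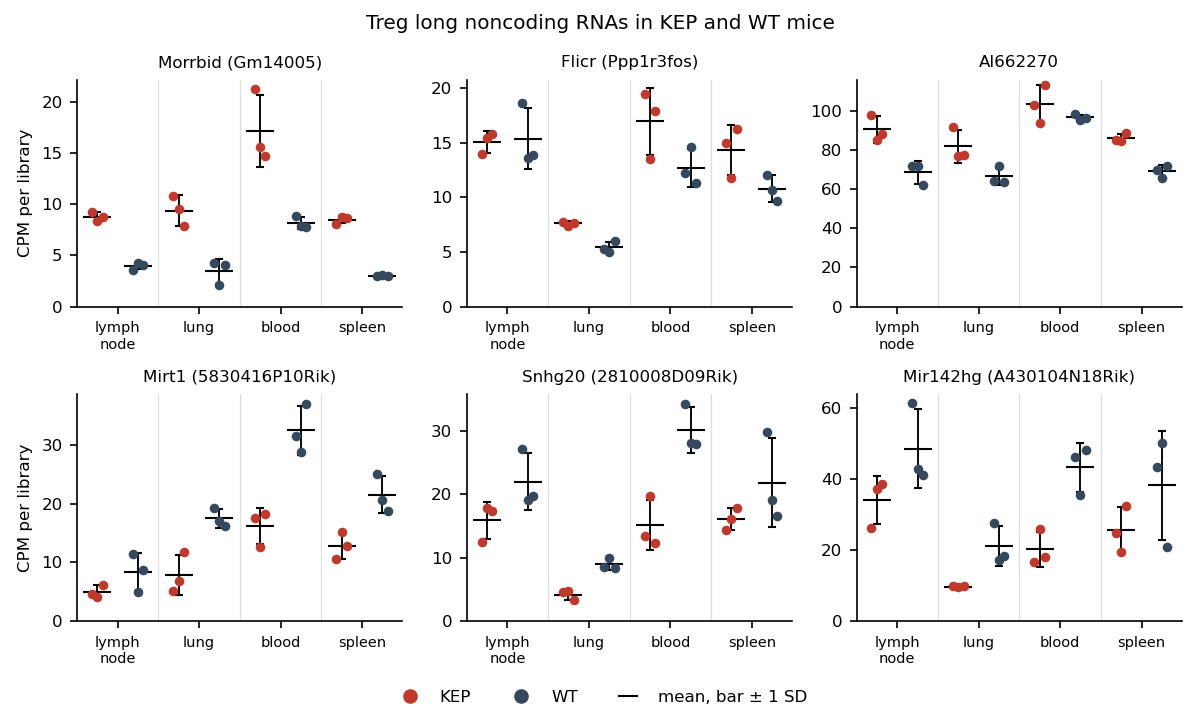
CPM of named long noncoding RNAs in each KEP and WT library of lymph node, lung, blood and spleen, with black lines for the group mean and ± 1 SD (n = 3 each). Morrbid lies higher in all KEP groups, for example at 14.7 to 21.2 CPM in KEP blood and 7.78 to 8.83 CPM in WT blood, and Mirt1 lies lower in KEP lung and blood.

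The other genes with the smallest p among those higher in KEP moved by less. AI662270, a noncoding RNA near the Schlafen genes, had a mean log2 fold change of 0.28 (SE 0.04, adjusted p = 1.81e-05), and its coding neighbour Slfn3 had 0.41 (0.0145). It stood at 85.1, 84.6 and 88.6 CPM in KEP spleens, against 69.9, 65.9 and 71.6 CPM in WT spleens. Gm19585 had 0.74 (SE 0.13, adjusted p = 9.31e-05) and stood at 10.6, 8.03 and 10.1 CPM in KEP lymph nodes, against 4.08, 5.09 and 3.84 CPM in WT lymph nodes. In both of these tissues the groups are separate. The calls for AI662270 in spleen, lymph node and lung and for Gm19585 in lymph node were each lost when certain single libraries were left out: for AI662270 any 1 of the 6 spleen libraries (adjusted p 0.0526 to 0.173), WT lymph node replicate 1 or 3 or KEP replicate 1 (0.078 to 0.179), and WT lung replicate 1 or 3 or KEP replicate 1 (0.0616 to 0.124); for Gm19585 any lymph node library other than KEP replicate 2 (0.0659 to 0.207). Atp10d, which names a lipid flippase gene, rose by 0.18 on the log2 scale (SE 0.04, adjusted p = 0.000488). In the fit of all 31 libraries neither Atp10d (adjusted p = 0.382) nor AI662270 (0.369) was called over the tissues. The RNA known as Cyrano (1700020I14Rik), which in mouse promotes the decay of a microRNA, rose by 0.16 (SE 0.04, adjusted p = 0.00644), and its adjusted p was 0.0562 with the title date as a random term and 0.0815 in the fit of all 31 libraries.

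Among the genes lower in KEP, Snhg20 followed Mirt1. Lungs had 4.53, 4.71 and 3.28 CPM in KEP mice, against 8.63, 9.93 and 8.39 CPM in WT mice, and blood had 13.5, 19.7 and 12.4 CPM in KEP mice, against 34.3, 28.1 and 27.9 CPM in WT mice. Both pairs are separate. Its log2 fold change was -1.09 in lung (SE 0.24, adjusted p = 0.00314), -0.98 in blood (SE 0.20, 0.00162) and -0.74 over the tissues (SE 0.11, 8.47e-06). Epb41l4aos, 341 bases from Epb41l4a on the other strand, stood at 3.02, 3.11 and 3.79 CPM in KEP lungs, against 6.47, 6.62 and 5.91 CPM in WT lungs. It fell by 0.93 in lung (adjusted p = 0.00205) and by 0.96 in blood (0.000996), while its log2 fold change was -0.03 in spleen and -0.04 in lymph node. 5031434O11Rik, which overlaps the lysine methyltransferase gene Setd7 on the other strand, fell by 1.11 in lung (adjusted p = 0.00159), and Setd7 itself by 0.24 (0.0375). In lung 5430416N02Rik fell by 0.69 and AI480526 by 0.90. In blood D030028A08Rik fell by 1.18 and Gm20204 by 0.68.

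Both precursors of the microRNA sequences shown above as hosts were lower in KEP. Mir142hg stood at 9.89, 9.51 and 9.83 CPM in KEP lungs, against 27.5, 17.3 and 18.4 CPM in WT lungs. Blood had 16.7, 25.9 and 18 CPM in KEP mice, against 46.2, 35.4 and 48.3 CPM in WT mice. In both tissues the groups are separate. Over the tissues it fell by 0.82 on the log2 scale (SE 0.14, adjusted p = 0.000175), while Tspoap1, the coding gene 3271 bases away on the same strand, rose by 0.62 (SE 0.13, 0.000477). The lung call of Mir142hg was lost without WT replicate 1 (-0.87, adjusted p = 0.09) or KEP replicate 1 (-1.12, 0.0603), and the blood call without KEP replicate 1 (-0.96, 0.0548) or 3 (adjusted p = 0.0581). Mir17hg fell by 0.58 over the tissues (SE 0.14, adjusted p = 0.00154). It stood at 6.01, 4.86 and 6.12 CPM in KEP blood, against 11.1, 10.5 and 8.78 CPM in WT blood, with no overlap; that difference (-0.84, adjusted p = 0.0314) was not called without any 1 of 5 blood libraries, all but WT replicate 3 (adjusted p 0.0685 to 0.104). Pvt1, which lies beside Myc, the growth regulator, had a log2 fold change of 0.04.

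For the abundant nuclear RNAs the call depended on how the title date was treated. Malat1 stood at 1054, 592 and 553 CPM in KEP spleens, against 1456, 789.9 and 942 CPM in WT spleens, and at 469, 841 and 561 CPM in KEP lungs, against 1615, 739.8 and 1226 CPM in WT lungs. The groups overlap in both tissues, and WT replicate 1 is the highest. Its mean log2 fold change was -0.73 (SE 0.21, adjusted p = 0.01), -0.51 (0.0714) without the WT libraries of the first title date, and -0.73 (0.0687) in the limma-voom fit with the title date as a random term. Neat1 had -0.30 (SE 0.11, adjusted p = 0.0278), -0.09 (0.297) without those WT libraries, and -0.28 (0.0861) with the date term. Its call was also lost without any 1 of WT spleen, lung or blood replicate 1, KEP spleen replicate 2, or KEP lymph node or lung replicate 1 (adjusted p 0.0511 to 0.061). Gm26917, a gene at the Yam1 locus, fell by 1.25 (SE 0.23, adjusted p = 0.000337) and by 0.81 without those WT libraries (0.00103). Whether ribosomal RNA reads are among the counts of Gm26917 was not tested. Yam1 stood at 2874, 3888 and 2400 CPM in KEP blood, against 6541, 9934 and 3928 CPM in WT blood, with WT replicate 2 the highest of the 24 libraries. Xist (0.14), Ftx (-0.16), Tug1 (0.09) and Kcnq1ot1 (-0.11) were not called over the tissues.

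Tissue was compared within both genotypes, as the mean of the KEP and WT differences from spleen; the 3 comparisons share the spleen libraries. In lung 30 of the 139 were called higher and 51 lower than in spleen, against 59.4% of all genes called (29.3% higher and 30.1% lower). At least 2-fold changes were called for 13 higher and 17 lower, against 10.5% and 5.43% of all genes. In blood 68 were called higher and 12 lower, against 40.8% of all genes (20.4% each way), and the median log2 fold change was 0.33, against -0.00 for all genes. In lymph node 11 were called higher and 8 lower, against 21.6% of all genes (11.1% and 10.5%); with the title date as a fixed block, which pairs tissues of the same date, 33 were called in place of 19. The labels' protocols describe digestion with Liberase for lungs and none for spleens, so digestion and tissue cannot be told apart there. In lung against spleen 5 of 5 B cell markers were lower (median log2 fold change -2.76), 4 of 5 stroma and endothelium markers were higher (3.72), 4 macrophage and monocyte markers were higher and 3 lower of 8 tested, and 7 of 10 T cell markers were lower and 1 higher (-0.25). Macrophage sums were 34.8 to 74.6 CPM in KEP lungs and 91.6 to 157 CPM in WT lungs, against 17.4 to 38.6 CPM in KEP spleens and 9.17 to 13.1 CPM in WT spleens; the part of these cells in the lung results was not tested. Blood libraries came from 17000 to 70000 sorted cells in KEP and 9000 to 30000 in WT mice, against 70000 for the spleens. Markers of red cells and platelets, 5 of 5 called higher in blood, summed to 1980 to 4144 CPM in KEP blood and 1869 to 7560 CPM in WT blood, against 25.7 to 522 CPM in the spleens; their part in the blood results was not tested.

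A630072M18Rik and Gm19557 were among the genes with the smallest p of those higher in lung than in spleen. Their lung levels were several times their spleen levels. A630072M18Rik, which lies opposite Rsbn1l on chromosome 5 (20950989 to 20956398), stood at 43.0, 38.0 and 36.3 CPM in KEP lungs and 42.8, 38.0 and 39.5 CPM in WT lungs, against 5.84, 5.26 and 7.93 CPM in KEP spleens and 6.27, 5.94 and 5.75 CPM in WT spleens. Gm19557, antisense to the telomere gene Stn1 on chromosome 19 (47512982 to 47516578), stood at 17.8, 26.8 and 21 CPM in KEP lungs and 27, 22.9 and 16.1 CPM in WT lungs, against 1.92, 1.73 and 2.62 CPM in KEP spleens and 0.979, 2.34 and 1.17 CPM in WT spleens. Lung and spleen are far apart in both genes, with similar levels in KEP and WT. The spleen values of Gm19557 were all under 5 CPM, so its place in the set rests on higher levels in other tissues, lung among them. The log2 fold changes were 2.87 (SE 0.15, adjusted p = 1.52e-14) for A630072M18Rik and 3.81 (SE 0.20, 2.25e-14) for Gm19557. Their opposite-strand partners moved the same way by less, Rsbn1l by 0.36 (adjusted p = 5.38e-05) and Stn1 by 0.34 (0.00437).

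Mir17hg and the locus beside the miR-23a set were also high in lung. Mir17hg stood at 18.4, 19.6 and 24.7 CPM in KEP lungs and 41.0, 22.6 and 26.6 CPM in WT lungs, against 2.35, 3.14 and 5.72 CPM in KEP spleens and 6.37, 4.23 and 4.04 CPM in WT spleens. Its log2 fold change was 2.74 (SE 0.19, adjusted p = 1.24e-11). Gm26532 had 36.8, 28.4 and 38.7 CPM in KEP lungs and 84.5, 56.3 and 51.4 CPM in WT lungs, against 4.27, 3.14 and 7.85 CPM in KEP spleens and 6.07, 5.40 and 3.42 CPM in WT spleens. No lung library of either gene reached down to a spleen library of its genotype. Mir142hg went the other way, at -0.93 (SE 0.21, adjusted p = 0.000718). Of the 3 genes listed as microRNA hosts, 1 was higher (Mir17hg), 1 lower (Mir142hg) and 1 not called (Pvt1, -0.11) in lung.

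BC043934 on chromosome 9 (96435783 to 96438138) had the lowest log2 fold change of the set in lung against spleen. It stood at 1.21, 2.69 and 3.88 CPM in KEP lungs and 2.36, 1.84 and 2.28 CPM in WT lungs, against 15.4, 17.8 and 19 CPM in KEP spleens and 22, 25.6 and 22.8 CPM in WT spleens. Blood and lymph node were close to spleen, at 14.7 to 28.2 CPM over the 6 blood libraries and 20.5 to 30.8 CPM over the 6 lymph node libraries. The log2 fold change in lung was -2.91 (SE 0.19, adjusted p = 3.11e-12). Snhg genes moved in both directions, with Snhg15 at 2.05 and Snhg17 at -1.51 and Snhg20 at -1.42. Flicr fell by 0.76 in lung (adjusted p = 6.1e-06), where Foxp3 rose by 0.22 (0.0161), and Neat1 fell by 0.92 (3.68e-05).

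Lymph node differed from spleen in fewer of these genes. 2310001H17Rik, on chromosome 6, 21878 bases from the lectin gene Clec2d, stood at 34, 30.6 and 35.5 CPM in KEP lymph nodes and 36.8, 29.5 and 26.4 CPM in WT lymph nodes, against 15.4, 16 and 17.9 CPM in KEP spleens and 14.6, 12 and 16.8 CPM in WT spleens. All lymph node libraries lie above all spleen libraries, and the log2 fold change was 1.04 (SE 0.10, adjusted p = 3.2e-08), against 0.33 for Clec2d (0.00294). Mirt1 was lower in lymph node, by 1.37 (SE 0.18, adjusted p = 8.86e-06). These 2 genes, 1 higher and 1 lower, were those called at 2-fold or more in this comparison, against 2.04% and 2.35% of all genes.

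In blood both nuclear RNAs, all 3 RNAs listed as p53-linked (Neat1, Tug1 and Pvt1) and 2 of the 3 listed microRNA hosts were called higher than in spleen. In this comparison 68 of the 139 genes were called higher, against 20.4% of all genes. The lists are short and share genes, Neat1 being both a nuclear and a p53-linked RNA. Pvt1, which is listed both as p53-linked and as a microRNA host, had 0.35 (adjusted p = 0.0321). The Pvt1 call was lost without any 1 of WT spleen replicate 2 or 3, WT blood replicate 1, any KEP spleen library, or KEP blood replicate 1 or 3 (adjusted p 0.0549 to 0.104). Neat1 stood at 829, 747 and 809 CPM in KEP blood and 1117, 849 and 891 CPM in WT blood, against 389, 351 and 467 CPM in KEP spleens and 491, 418 and 298 CPM in WT spleens. All blood libraries lie above all spleen libraries, and the log2 fold change was 1.16 (SE 0.15, adjusted p = 7.34e-06). Kcnq1ot1, the antisense RNA that silences an imprinted domain, rose by 1.39 (SE 0.28, adjusted p = 0.00046), Tug1 by 0.78 (6.21e-06) and Xist by 0.86 (0.0119). Malat1 had 0.81 (adjusted p = 0.0384), and its call was lost without any 1 of WT spleen replicate 2 or 3, WT blood replicate 2, KEP spleen replicate 2 or 3, or KEP blood replicate 1 or 2 (adjusted p 0.0527 to 0.121). Morrbid rose by 1.27 (SE 0.14, adjusted p = 1.67e-07), with Bcl2l11 at -0.02. Gm15675, beside the complement regulator gene Cd55, rose by 1.57 (adjusted p = 4.27e-07) and Cd55 by 0.88 (2.19e-07). F730311O21Rik stood at 19.7, 14.2 and 18.9 CPM in KEP blood and 22.6, 16.6 and 18.6 CPM in WT blood, against 7.94, 7.94 and 9.15 CPM in KEP spleens and 9.99, 6.57 and 5.83 CPM in WT spleens; its levels in blood and spleen do not overlap.

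**Figure D4:**
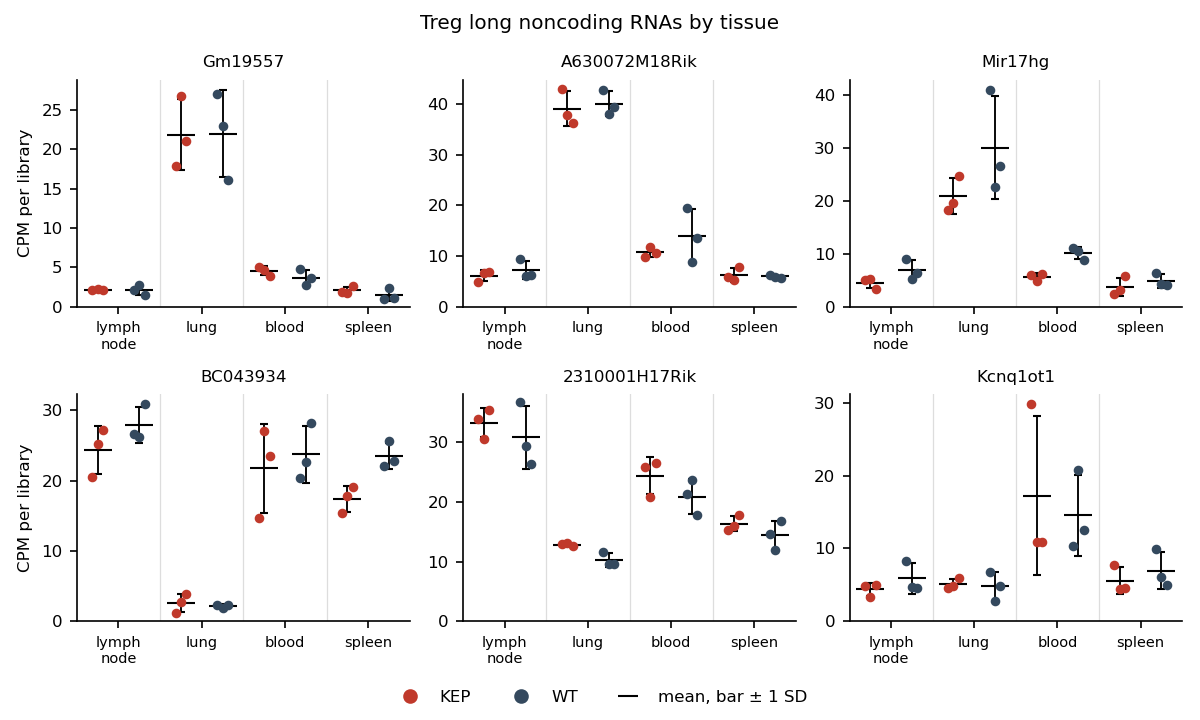
CPM of 6 long noncoding RNAs in lymph node, lung, blood and spleen of KEP and WT mice, 1 point per library with black lines for the group mean and ± 1 SD (n = 3 each). Gm19557, A630072M18Rik and Mir17hg have their highest group means in lung, BC043934 its lowest in lung, 2310001H17Rik its highest in lymph node and Kcnq1ot1 its highest in blood, where 1 KEP library stands at 29.9 CPM.

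Tumor Tregs were compared with Tregs of healthy mammary gland, the tissue the tumor arises in. Of 138 genes tested 12 were called higher and 7 lower in tumor, against 25.2% of all genes (11.2% higher and 14% lower). The count ran from 4 to 40 as single libraries were left out. It was 4 without mammary gland replicate 1, 40 without replicate 2 and 6 without replicate 3 or 4. Without tumor replicate 1, 2 and 3 it was 9, 7 and 32. Over all genes the count ran from 1675 to 5394 as single libraries were left out. On simulated counts the fits of tumor against mammary gland and against KEP spleen recovered 0% of genes changed 1.5-fold or 2-fold. A gene not called in either comparison may therefore still differ by that much. The labels' protocols describe digestion for tumor and none for mammary gland. Markers of epithelium summed to 132 to 1772 CPM in tumor and 3755 to 4949 CPM in mammary gland, those of fat and milk to 18.9 to 2846 CPM in tumor and 3455 to 17179 CPM in mammary gland, and those of macrophages to 686 to 5058 CPM in tumor and 63.8 to 154 CPM in mammary gland, beside T cell sums of 1966 to 6374 and 171 to 1742 CPM. Genes of T cells thus stood lower in mammary gland than in any other group, and the part of this in the values below was not tested.

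Morrbid stood at 10.9, 11.6 and 10.7 CPM in tumors, against 1.93, 2.84, 1.93 and 2.16 CPM in mammary glands. The groups are separate. Its log2 fold change was 2.47 (SE 0.28, adjusted p = 0.00363). Gm19585 stood at 10.9, 9.91 and 5.13 CPM in tumors, against 0.160, 1.46, 0.333 and 0.0655 CPM in mammary glands, a log2 fold change of 4.24 (SE 0.91, adjusted p = 0.0179). It was not called without mammary gland replicate 1 (3.94, adjusted p = 0.0542) or 3 (4.05, 0.0597). Flicr had 5.65, 3.30 and 1.49 CPM in tumors, against 0.722, 2.03, 0.0666 and 0.524 CPM in mammary glands. Its groups overlap and it was not called (2.23, adjusted p = 0.111). Epb41l4aos stood at 4.04, 5.13 and 4.57 CPM in tumors, against 16, 15.7, 19.3 and 14.7 CPM in mammary glands, and fell by 1.69 (SE 0.22, adjusted p = 0.00452), as did its coding neighbour Epb41l4a, by 1.15 (0.0496). Gm15675 fell by 2.15 (adjusted p = 0.0107), with Cd55 at -1.36 (0.0184). Gm15441, antisense to Txnip, a redox and glucose uptake regulator, stood at 0.179, 0.0869 and 0.186 CPM in tumors, against 0.883, 2.92, 2.13 and 3.01 CPM in mammary glands; it fell by 3.67 (SE 0.67, adjusted p = 0.0109) and Txnip by 1.55 (0.0221).

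**Figure D5:**
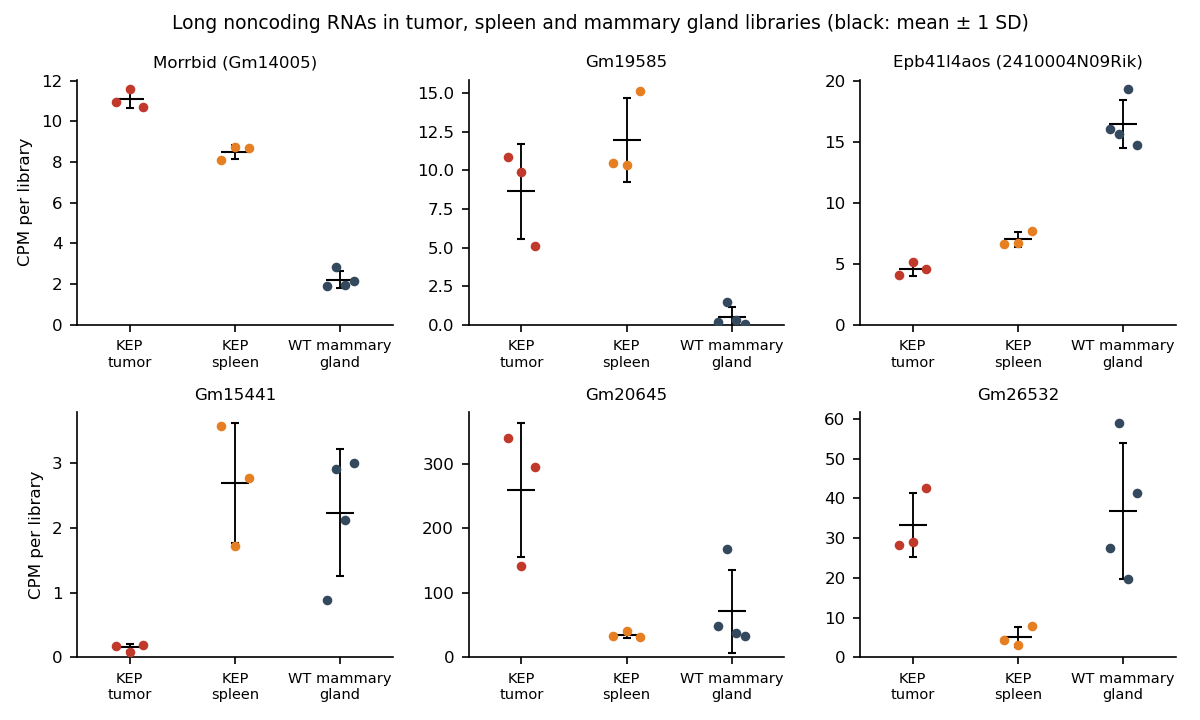
CPM of 6 long noncoding RNAs in each tumor, KEP spleen and WT mammary gland library, with black lines for the group mean and ± 1 SD (n = 3, 3 and 4). Morrbid stands at 10.7 to 11.6 CPM in tumor and 1.93 to 2.84 CPM in mammary gland, and Gm15441 stands below both other groups in tumor.

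Within KEP mice the tumor was also set against the spleen. There 10 of the 139 were called higher and 51 lower in tumor, against 46.8% of all genes (26.9% higher and 19.9% lower), and 7 higher and 38 lower were called at 2-fold or more, against 21.6% and 9.3% of all genes. The median log2 fold change was -0.63, against 0.04 for all genes. The genes were chosen by a mean level that included the KEP spleen libraries but no tumor library. That choice favours genes that stand higher in spleen, so the lean towards lower calls cannot be told apart from it. The count fell to 31, 26 and 28 without spleen replicate 1, 2 and 3, and these tumor libraries are those of the mammary gland comparison. Over all genes the count ran from 3349 to 7984 as single libraries were left out. Macrophage markers summed to 686 to 5058 CPM in tumor and 17.4 to 38.6 CPM in KEP spleens, none of them at 0 in tumor, and stroma and endothelium markers to 2485 to 6626 CPM in tumor and 174 to 208 CPM in KEP spleens; their part was not tested, and digestion and tissue cannot be told apart here either.

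The 10 genes higher in tumor than in KEP spleen included neighbours of coding genes that moved with them. Gm20645 stood at 339.7, 142 and 296 CPM in tumors, against 32.4, 40.2 and 31.9 CPM in KEP spleens, a log2 fold change of 3.07 (SE 0.38, adjusted p = 0.00279). Gm26532 had 28.3, 29 and 42.7 CPM in tumors, against 4.27, 3.14 and 7.85 CPM in KEP spleens (2.86, SE 0.40, adjusted p = 0.00347), and its neighbour Zswim4 rose by 1.46 (0.00496). Both are separate between the groups. Snhg15 rose by 2.65 (adjusted p = 0.00702) and Gm19557 by 2.45 (0.00377). Gdap10, which lies inside the span of Nampt, an enzyme of NAD salvage, rose by 2.39 (adjusted p = 0.00372), and Nampt by 2.01 (0.00217). 1110038B12Rik rose by 1.10 (SE 0.19, adjusted p = 0.00588); Hspa1b, an inducible heat shock chaperone gene 3965 bases away on the same strand, rose by 5.74 (SE 0.98, 0.00607).

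A930005H10Rik had the smallest p of the genes lower in tumor than in KEP spleen. It stood at 4.31, 3.91 and 4.57 CPM in tumors, against 19.7, 17.1 and 19 CPM in KEP spleens, with a log2 fold change of -1.97 (SE 0.21, adjusted p = 0.00198). BC043934 stood at 3.05, 1.48 and 1.31 CPM in tumors, against 15.4, 17.8 and 19 CPM in KEP spleens (-2.98, SE 0.42, adjusted p = 0.00348). Neither pair overlaps. Gm15441 fell by 3.92 (SE 0.52, adjusted p = 0.00309) and Txnip by 2.89 (0.00183). Snhg17 fell by 1.02 and 9130221H12Rik, opposite Gsk3a, by 2.02, while Gsk3a itself was not called (-0.35, adjusted p = 0.105). Flicr fell by 1.87 (adjusted p = 0.026) and Mir142hg by 1.38 (0.0343); both calls were lost without any 1 spleen library or tumor replicate 2 (adjusted p 0.0663 to 0.0866 for Flicr and 0.067 to 0.119 for Mir142hg). Morrbid had a log2 fold change of 0.53 (adjusted p = 0.0636).

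The genes were also set beside their coding neighbours, since many lie within 5000 bases of one. Of 43 genes called in KEP against WT over the tissues that had a tested neighbour at this distance, the neighbour was called in the same direction for 10, in the opposite direction for 8 and not called for 25; of all genes 41.4% were called there. In lung against spleen, of 55 such genes, the numbers were 24, 10 and 21, where 59.4% of all genes were called. In blood against spleen they were 12, 11 and 27 of 50 (40.8% of all genes called), and in tumor against KEP spleen 15, 11 and 17 of 43 (46.8%). Lymph node against spleen gave 4, 0 and 5 of 9 (21.6%), and tumor against mammary gland 6, 0 and 4 of 10 (25.2%). KEP against WT gave 4, 2 and 17 of 23 in lung (19.9%) and 4, 2 and 12 of 18 in blood (20.2%). In spleen and in lymph node it had 1 such gene each, with its neighbour not called. These are counts of genes that share strands, promoters and in part reads with their neighbours, and no test was made of them. At least 1 of the comparisons of lymph node, lung and blood with spleen called 117 of the 139 genes (84.2%, against 77.2% of all genes). Of 138 genes tested in every fit 9 were called in no comparison (6.52%, against 7.24% of all genes).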

How the data were processed

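The values deposited by the authors were unnormalized read counts of 24594 genes in 31 libraries. Per the labels' protocols, libraries were made with a TruSeq Stranded mRNA kit and sequenced from one end over 65 bases. In the submitters' processing notes, TopHat2 2.1.0, TopHat and HTSeq are named with GRCm38; their roles, the annotation release and the strand setting are not given in the sources used here. CPM are plain counts over library totals. Fold changes come from edgeR 4.0.16 (R 4.3.3): TMM factors, filterByExpr at a minimum count of 10, robust quasi-likelihood F tests, Benjamini-Hochberg adjustment over all genes tested, calls at 0.05. A fit of 24 libraries (8 group means) gave KEP against WT per tissue, their mean, a test of differences among tissues, and lymph node, lung and blood against spleen. Tumor was fitted with mammary gland (7 libraries) and with KEP spleen (6 libraries). Exons and overlaps come from GENCODE M21, sequences from RefSeq tables (GRCm38.p6; 112 genes matched by symbol), read with pandas 2.3.3 in Python 3.11.15.

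The genes and lists were chosen with earlier results of these data known. Genes named are those of role lists, the 10 highest per kilobase, up to 6 each way with the smallest p per comparison (at 2-fold or more between tissues), those at the threshold, and their coding neighbours. The scripts were tested on simulated data: for KEP against WT over the tissues 90% of 100 genes changed 2-fold and 77% of 100 changed 1.5-fold were recovered, on 12458 genes; for lung 76% and 45%, on 12474; for tumor against mammary gland (14311 genes) and against KEP spleen (12768 genes) 0% of either were recovered. Replicate pairs differed by 4.447 chi-square per degree of freedom or more, so no library was a duplicate. Same-date libraries of the 4 tissues deviated together in 18 of 18 KEP pairs (median correlation across genes 0.266) and in 7 of 18 WT pairs above 0.1 (median 0.089); since the labels give the shared date, a date block was used for tissues, and a random date term in limma-voom 3.58.1 for KEP against WT. Alternatives included RLE and upper-quartile factors, other filters, DESeq2 1.42.0, all 31 libraries, sorted cells as a covariate, subsets of the genes and leaving out each library. Leaving out the WT libraries of the first title date, or the blood libraries of fewest sorted cells, was chosen after the data were seen.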

Additional observations from a re-analysis of the deposited data

Results flagged for a closer look

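F730043M19Rik, 96 bases from Atxn7l1 on the other strand, was the 1 result of those examined with a library far from the others of its group: it stood at 12.5 CPM in mammary gland replicate 2, against 2.82 to 4.33 CPM in the other 3 mammary gland libraries. It was called higher in tumor than in mammary gland (log2 fold change 3.25, adjusted p = 0.015), and not without mammary gland replicate 1 (3.11, adjusted p = 0.0504). By the same measure 25 of the 139 genes (17.99%) had an outlying library in mammary gland. All genes were measured in the same libraries and are not independent, so this share cannot be set against a chance rate. Replicate 2 also held the highest T cell marker sum of the mammary gland libraries, 1742 CPM; its part in the value was not tested.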

How the results depend on the processing

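Of 120 named results 71 were called under each alternative tried; over 2447 alternatives 2224 were called in the same direction, 223 were not called and 0 were called or valued in the opposite direction. Counts are given as the percentage of these genes called, without the share of all genes under the same setting. Of 129 such counts other than those leaving out 1 library, 105 stayed within 1.5 times; the cause of the other differences was not tested. KEP against WT over the tissues (48.9%) fell to 25.9% with the date as a random block and to 21.6% with all 31 libraries in 1 fit. With all 31 libraries the share was 0.719% in spleen (2.16% as reported), 0% in lymph node (2.88%), 2.16% in lung (23%), 7.19% in blood (23.7%), 2.16% for lymph node against spleen (13.7%), 31.7% for blood against spleen (57.6%) and 51.1% for tumor against mammary gland (13.8%). DESeq2 gave 3.6% in spleen and 29.2% for tumor against mammary gland, where limma-voom gave 23.9%. In spleen the share was 1.16% for genes of at least 10 CPM, and 0% for genes that overlap no other, as in lymph node (0%). Without the WT libraries of the first title date it was 0.719% in spleen and 0% in lymph node. Lung gave 14.4% with only its 6 libraries, blood gave 10.8% with sorted cells as a covariate, and lymph node against spleen gave 23.7% with the date as a fixed block. The test of differences among tissues (0%) gave 2.16% without the filter, 2.88% with DESeq2, 2.88% with the random date block and 1.44% without the first-date WT libraries. Leaving out each library gave 42.4% to 51.8% over the tissues, 0.719% to 2.88% in spleen, 0% to 2.88% in lymph node, 11.5% to 22.3% in lung, 15.1% to 22.3% in blood, 0% to 1.44% for differences among tissues, 9.35% to 14.4% for lymph node, 58.3% to 63.3% for lung and 47.5% to 60.4% for blood against spleen, 2.9% to 29.4% for tumor against mammary gland and 18.7% to 52.5% for tumor against KEP spleen. Genes near 5 CPM rest on few reads, ribosomal RNA cannot be told apart from Yam1, and the strand setting of the counting is unknown.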
